A study of Homo sapiens with 8 samples.

Results

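The 8 genes ETV1, ETV4, ETV5, ETS1, ETS2, ELK1, ELK3 and ELF1 encode transcription factors of the ETS family, and their transcripts were followed across 8 arrays of A375 cells. The genes were chosen by symbol, and each probe set (a group of short array probes against 1 transcript) that the platform annotation pairs with exactly 1 of these symbols was taken. They are 8 of 19775 genes named on the array and have 25 of its 54675 probe sets. A375 is an established human melanoma line with an activating BRAF mutation.

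The study asked how BRAF and the stress-induced transcription factor ATF4 shape transcript levels when glutamine is withdrawn or BRAF is inhibited. Cells received an siRNA against BRAF (siBRAF), an siRNA against ATF4 (siATF4) or a nontargeting siRNA (siCont), and all grew in RPMI1640 with serum and kanamycin. The 5 medium arrays held siBRAF cells in glutamine-free medium (GlnF), siCont cells in GlnF, siBRAF cells in normal medium (Normal), siATF4 cells in Normal and siCont cells in Normal, each kept in its medium for 18 h. The 3 drug arrays held siATF4 cells in 10 uM vemurafenib (VEM), a BRAF inhibitor, siCont cells in VEM and siCont cells in the solvent DMSO, each treated for 4 h. Each condition was 1 array of 1 cell line, so no difference below has a replicate check, an error or a p-value, and each describes a pair of arrays. BRAF's own level was not analysed here, whereas ATF4 had 534 intensity units with siATF4 in Normal, against 1814 with siCont in Normal, and 757 with siATF4 in VEM, against 4548 with siCont in VEM.

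ETS factors share a DNA-binding domain that recognises a GGAA core, and many of them are end points of the RAS, RAF, MEK and ERK kinase cascade that mutant BRAF keeps active in melanoma. ETV1, ETV4 and ETV5 form the PEA3 subfamily, whose genes are repressed by CIC until ERK relieves that repression. ETS1 and ETS2 are made more active by ERK phosphorylation, and ELK1 and ELK3 bind with serum response factor beside immediate early genes. ELF1 belongs to another branch, known for its part in lymphoid gene expression.

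All values are intensities on a linear scale, and a difference is that of log2(intensity + 1) between 2 arrays of the same set, so that 1 unit is a factor of 2 and changes at low intensity are understated. The medium arrays had median intensities of 14.76 to 15.5 and the drug arrays of 36.38 to 36.85, so no value of one set was compared with a value of the other. Where a gene had several probe sets, the one brightest on average stood for it, and genes below the array median on both arrays of a pair were left out of that pair. "Rose" and "fell" are used for differences of at least 2-fold. Of the melanocyte lineage markers, MITF, TYR, SOX10 and S100B were above the array median on all 8 arrays and MLANA and TYRP1 on none. PMEL was below the array median on 5 of the 8. Of 6 markers of other cell types, EPCAM and PTPRC were above the array median on no array, and KRT5, KRT14, PECAM1 and COL1A1 on all 8. TYR and KRT5 lay close to the median, at 15.43 and 18.48 with siCont in GlnF against 14.76. The part of these markers in any result was not tested.

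**Figure D1:**
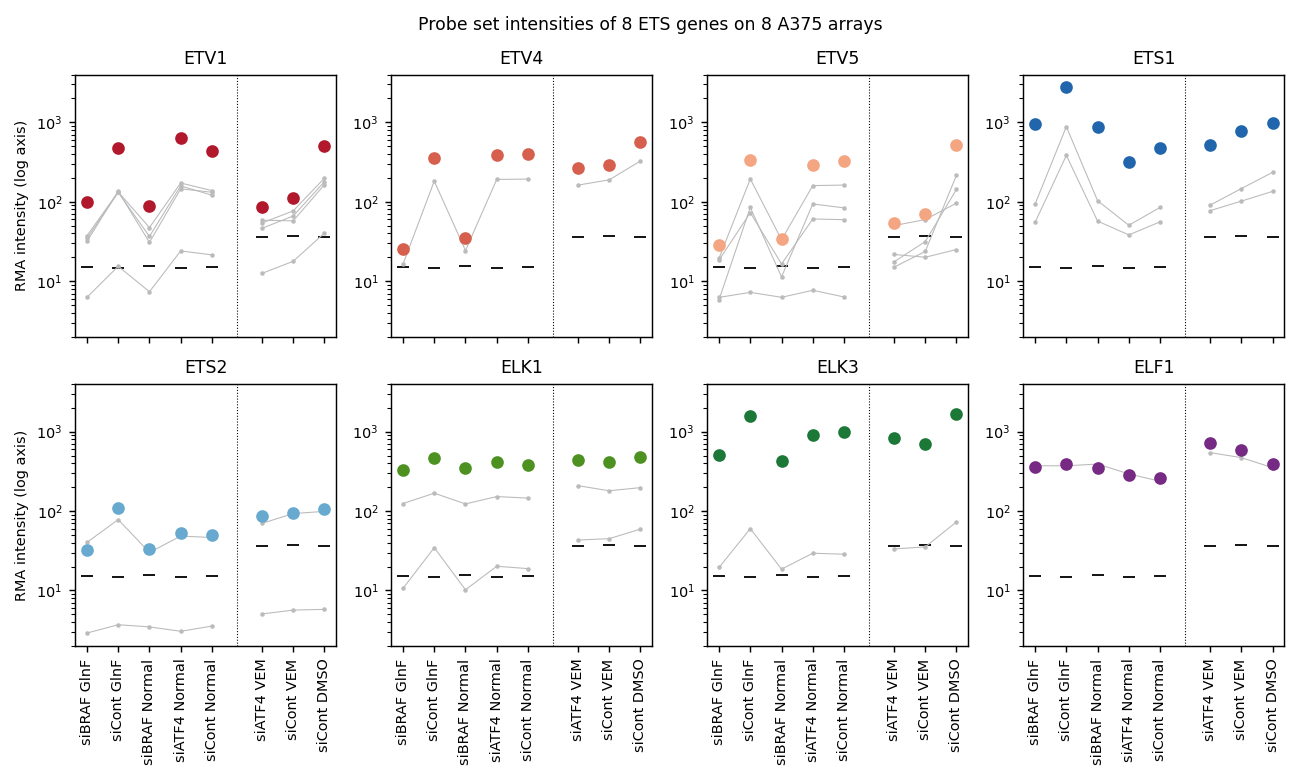
RMA intensity (log axis) of every probe set of the 8 ETS genes on the 5 medium arrays, left of the dotted line, and the 3 drug arrays, right of it, with 1 array per condition; large points are the probe set that represents the gene, grey points joined by lines the other probe sets, and black bars the array median. ETV1, ETV4 and ETV5 sit low on both siBRAF arrays, ETV1 and ETV5 also on both VEM arrays, and ETS1 peaks at 2809 with siCont in GlnF.

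BRAF knockdown was followed by the lowest PEA3 transcript levels of the medium set in both media, and ELK3 fell with them. In Normal, 4 of the 8 genes fell (ETV1, ETV4, ETV5 and ELK3) and 0 rose, while 7.61% of all 13346 genes compared fell and 7.16% rose. In GlnF, 6 fell (those 4 with ETS1 and ETS2) and 0 rose, while 10.8% of all 13496 genes fell and 12.8% rose. The median difference of the 8 genes was -0.90 in Normal and -1.69 in GlnF, and that of all genes was -0.01 in Normal and 0.02 in GlnF. In bulk RNA of this kind, fewer cells that express a gene and less RNA of it per cell cannot be told apart. Among the lineage markers, S100B rose by 3.25 with siBRAF in GlnF, and S100B had 2.17 and MITF 1.15 with siBRAF in Normal, while 0 of the markers of other cell types moved past 2-fold, and the part of these changes in the ETS results was not tested.

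ETV4, the PEA3 factor known for invasion and metastasis, had 25.7 with siBRAF in GlnF, against 352 with siCont in GlnF. It had 34.6 with siBRAF in Normal, against 394 with siCont in Normal and 383 with siATF4 in Normal. Both siBRAF arrays were therefore far below the other 3 medium arrays. The differences with siBRAF were -3.73 in GlnF (13.2-fold lower) and -3.47 in Normal (11.1-fold lower), and 0.07% of all genes in Normal had a lower difference. The second ETV4 probe set was lower by the same pattern, at -3.39 in GlnF and -2.94 in Normal.

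ETV5, the PEA3 factor known from growth factor responses in development, had 28.3 with siBRAF in GlnF, against 333 with siCont in GlnF. It had 33.9 with siBRAF in Normal, against 327 with siCont in Normal and 292 with siATF4 in Normal. As with ETV4, the 2 siBRAF arrays were apart from the other 3. ETV5 fell in both media, with differences of -3.51 in GlnF and -3.23 in Normal, and 0.14% of all genes in Normal had a lower difference. Of its 5 probe sets, 3 were above the array median on both arrays of each pair, and these had differences of -3.51 to -1.92 in GlnF and -3.23 to -1.79 in Normal.

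ETV1, a melanoma oncogene that cooperates with BRAF signalling, had 98.5 with siBRAF in GlnF, against 473 with siCont in GlnF. It had 87.6 with siBRAF in Normal, against 435 with siCont in Normal and 639 with siATF4 in Normal. ETV1 fell in both media, with differences of -2.25 in GlnF and -2.30 in Normal, the smallest change of the 3 PEA3 genes in each medium. Of its 5 probe sets, 4 were above the median on both arrays of each pair, and these had differences of -2.25 to -1.80 in GlnF and -2.30 to -1.53 in Normal.

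CIC is known to repress the PEA3 genes through an octamer in their control regions. The 250 bases before each annotated start were therefore searched on both strands for TGAATGAA and TGAATGGA, 2 forms of that octamer. No other form of it was searched. The RefSeq (GRCh38.p14) windows at hand held 14 for 5 of the 8 genes, some of them overlapping. There were 6 for ETV1, 2 for ETS2, 1 for ELK1, 2 for ELK3 and 3 for ELF1. No window was at hand for ETV4, ETV5 or ETS1, so these genes, among them the PEA3 genes ETV4 and ETV5, were not searched. Over all 35116 windows of this length, 1.4% hold TGAATGAA and 0.832% hold TGAATGGA. The one match of the 14 windows is TGAATGGA in an ETV1 window at chr7:13991426-13991675 on the minus strand, at bases -125 to -118 from the start. It is printed because ETV1 fell with siBRAF in both media and with VEM, with the octamer in capitals:
ETV1: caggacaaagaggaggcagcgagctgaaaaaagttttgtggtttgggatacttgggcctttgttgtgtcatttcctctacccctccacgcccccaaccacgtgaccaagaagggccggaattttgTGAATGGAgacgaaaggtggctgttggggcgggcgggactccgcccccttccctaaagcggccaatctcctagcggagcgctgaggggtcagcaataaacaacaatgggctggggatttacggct
The same 14 windows were searched for the AP-1 site TGANTCA (in 6.57% of all windows), the ETS site CCGGAAGT (3.42%), the cyclic AMP element TGACGTCA (1.65%) and the ATF4 composite site TGATGNAAT (0.888%), and none of these had a match. A match is a run of letters and was not tested as a binding site here.

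ELK3, also called NET, a serum response factor partner that represses until ERK phosphorylates it, had 504 with siBRAF in GlnF, against 1549.6 with siCont in GlnF. It had 427 with siBRAF in Normal, against 987 with siCont in Normal and 917 with siATF4 in Normal. Both siBRAF arrays were again the lowest of the medium set. ELK3 fell in both media, with differences of -1.62 in GlnF and -1.21 in Normal. Its second probe set had -1.57 in GlnF and -0.60 in Normal, where it was under 2-fold. The ELK3 window at chr12:96194125-96194374 on the plus strand, shown as the upstream window of the one gene outside the PEA3 group that fell in both media and with VEM, held none of the 6 motifs and so has no capitals:
ELK3: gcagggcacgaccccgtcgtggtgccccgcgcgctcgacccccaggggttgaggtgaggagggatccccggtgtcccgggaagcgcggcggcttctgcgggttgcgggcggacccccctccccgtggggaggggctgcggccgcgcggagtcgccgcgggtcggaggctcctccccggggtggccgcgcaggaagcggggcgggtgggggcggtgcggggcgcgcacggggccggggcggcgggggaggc

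ELK1, the best known serum response factor partner and a direct ERK substrate, had 331 with siBRAF in GlnF, against 468 with siCont in GlnF, and 350.1 with siBRAF in Normal, against 382 with siCont in Normal. The differences were -0.50 in GlnF and -0.12 in Normal, so ELK1 and ELK3 were apart in size in each pair. All 3 ELK1 probe sets have names that mark probes shared with other transcripts. The 2 that were above the median on both arrays of each pair had differences of -0.50 and -0.43 in GlnF and -0.12 and -0.24 in Normal.

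ELF1 had 358 with siBRAF in GlnF, against 389 with siCont in GlnF, and 349.6 with siBRAF in Normal, against 263 with siCont in Normal. The differences of -0.12 and 0.41 were both under 2-fold. ELF1 and ETS1 were the only genes of the 8 that were higher with siBRAF in Normal.

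**Figure D2:**
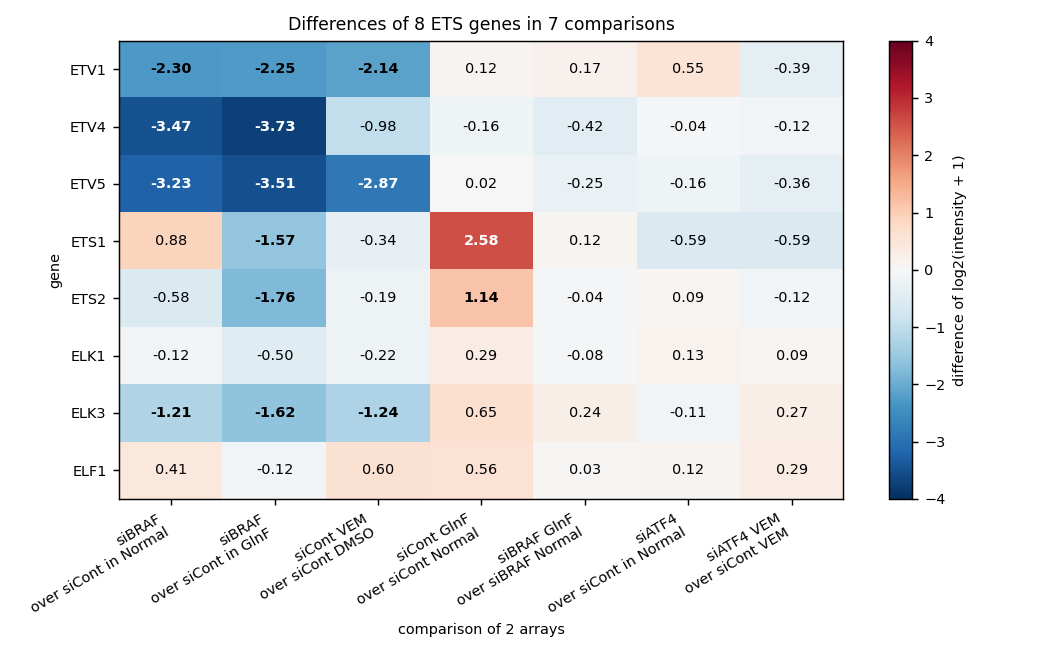
Difference of log2(intensity + 1) of each ETS gene (rows) in each of 7 pairs of arrays (columns), 1 array per condition, with blue for lower and red for higher in the group named first and bold type for at least 2-fold. The lowest cells are ETV4 and ETV5 with siBRAF (-3.23 to -3.73), and the highest is ETS1 with siCont in GlnF over Normal (2.58).

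Vemurafenib for 4 h was followed by lower levels of ETV1, ETV5 and ELK3, and ETV4 was just short of 2-fold. With VEM over DMSO, 3 of the 8 genes fell and 0 rose, while 1.92% of all 13160 genes fell and 0.859% rose. The median difference was -0.66 for the 8 genes and 0.03 for all genes. The DMSO array had the lowest difference between the 3' and 5' actin control probe sets of the drug arrays. It was -0.177 on the log2 scale within a range of -0.177 to -0.002, and its part in these results was not tested.

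ETV5 had 54.8 with siATF4 in VEM and 70.6 with siCont in VEM, against 524 with siCont in DMSO. Its difference with siCont was -2.87, and 0.11% of all genes had a lower one. ETV1 had 85.7 with siATF4 in VEM and 112 with siCont in VEM, against 497 with siCont in DMSO. For both genes the 2 VEM arrays were close together and far below the DMSO array. The ETV1 difference with siCont was -2.14, and the 4 probe sets above the median on both arrays ran from -2.14 to -1.36. The 2 such ETV5 probe sets had -2.87 and -0.68, so that they were far apart in size.

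ETV4 had 264 with siATF4 in VEM and 288 with siCont in VEM, against 569 with siCont in DMSO. The VEM arrays were lower here too, but by less than for the other PEA3 genes, with a difference of -0.98 with siCont (1.97-fold lower) and of -0.79 for the second probe set. With siATF4 in VEM over siCont in DMSO, which differ in both siRNA and drug, ETV4 was at -1.10, ETV1 at -2.52 and ETV5 at -3.23.

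ELK3 had 835 with siATF4 in VEM and 693 with siCont in VEM, against 1644 with siCont in DMSO. It fell by 1.24 with siCont, and its second probe set was below the array median with siCont in VEM. ELK1 had 442 with siATF4 in VEM and 416 with siCont in VEM, against 483 with siCont in DMSO, and its difference with siCont was -0.22. The 2 serum response factor partners were thus both lower, ELK3 past 2-fold and ELK1 not.

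ETS1 had 523 with siATF4 in VEM and 786 with siCont in VEM, against 992 with siCont in DMSO, a difference with siCont of -0.34. ETS2 had 85.8 with siATF4 in VEM and 93.4 with siCont in VEM, against 107 with siCont in DMSO, a difference with siCont of -0.19. ELF1 had 716 with siATF4 in VEM and 586 with siCont in VEM, against 386 with siCont in DMSO. ELF1 was the one gene of the 8 that was higher on both VEM arrays than on the DMSO array, by 0.60 with siCont, a difference that 97.0% of all genes lay below.

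BRAF knockdown and vemurafenib share no array, so their differences are separate measurements in cells kept for different times. The 8 genes had the same sign with VEM as with siBRAF in 7 of 8 cases in each medium, the exceptions being ETS1 in Normal and ELF1 in GlnF, while 59.0% of all genes had the same sign with siBRAF in GlnF and 62.4% with siBRAF in Normal. ETV1, ETV5 and ELK3 fell in all 3 pairs, as did 0.728% of the 12506 genes compared in all of them. Of 11 other ETS genes, 6 had the same sign with VEM as with siBRAF in each medium.

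**Figure D3:**
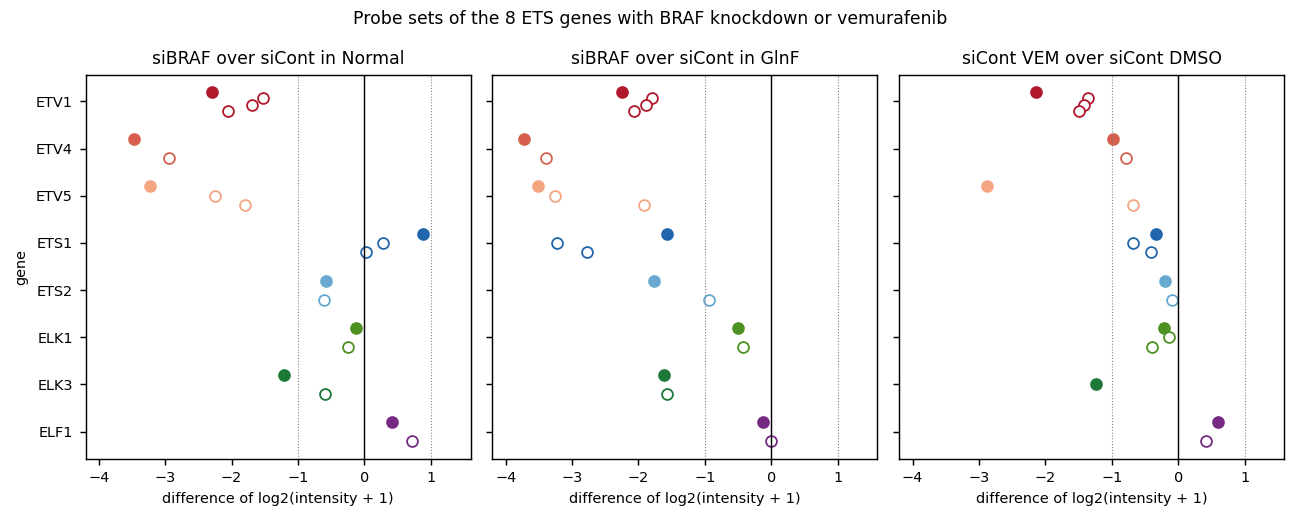
Difference of log2(intensity + 1) of each probe set above the array median on both arrays, in 3 pairs of arrays (siBRAF over siCont in Normal, siBRAF over siCont in GlnF, VEM over DMSO), with 1 point per probe set, filled for the one that represents the gene, and dotted lines at 2-fold. All ETV1, ETV4, ETV5 and ELK3 points lie left of 0 in all 3 panels, and all ELF1 points lie right of 0 with siBRAF in Normal and with VEM.

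Of the 25 probe sets, 20 were above the median on both arrays with siBRAF in GlnF, and 19 of them were lower and 1 higher. With siBRAF in Normal 20 were above it, 15 lower and 5 higher, and with VEM 19 were above it, 17 lower and 2 higher. The others were below the median on 1 or both arrays of the pair and were not counted, and probe sets of 1 gene are not replicates. Differences of any size were counted, and the same shares over all probe sets were not computed. The median difference of all genes was 0.02 with siBRAF in GlnF, -0.006 with siBRAF in Normal and 0.025 with VEM.

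Glutamine withdrawal was followed by a different pattern, with ETS1 and ETS2 up in siCont cells and the PEA3 genes near their Normal level. In siBRAF cells, 0 of the 8 genes rose and 0 fell in GlnF over Normal, while 0.0457% of all 13138 genes rose and 0.0761% fell. In siCont cells, 2 rose (ETS1 and ETS2) and 0 fell, while 5.76% of all 13355 genes rose and 7.22% fell. In the same siCont pair the lineage marker S100B had -1.39 and the keratinocyte marker KRT14 had -1.003, both past 2-fold, and their part in the result was not tested. The median difference of the 8 genes was -0.004 in siBRAF cells and 0.43 in siCont cells, and that of all genes was 0.014 in siBRAF cells and -0.045 in siCont cells. The siCont array in GlnF is also the baseline of siBRAF over siCont in GlnF. A rise here and a fall there therefore share its value and are not separate results. The siCont array in GlnF also had the highest difference between the 3' and 5' actin control probe sets of the medium arrays, 0.28 on the log2 scale within a range of 0.16 to 0.28, and the part of this in the result was not tested.

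ETS1, an ERK-responsive factor known for invasion and angiogenesis, had 942 with siBRAF in GlnF and 2809 with siCont in GlnF. It had 866 with siBRAF in Normal, 313 with siATF4 in Normal and 470.4 with siCont in Normal. The siCont array in GlnF was thus the highest of the medium set, the 2 siBRAF arrays lay together in the middle, and the siATF4 and siCont arrays in Normal were the lowest. In GlnF over Normal, ETS1 had 0.12 in siBRAF cells and rose by 2.58 in siCont cells (5.96-fold). In siCont cells 99.6% of all genes had a lower difference.

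The other 2 ETS1 probe sets gave the same order of the GlnF arrays. One had 93.7 with siBRAF in GlnF and 883 with siCont in GlnF, beside 103 with siBRAF in Normal, 50.6 with siATF4 in Normal and 84.9 with siCont in Normal. The other had 55.2 with siBRAF in GlnF and 383 with siCont in GlnF, beside 57.1 with siBRAF in Normal, 38.2 with siATF4 in Normal and 55.9 with siCont in Normal. The probe sets did not give the same value for siBRAF in Normal, where the 3 differences ran from 0.03 to 0.88. In GlnF all 3 were lower with siBRAF, from -3.22 to -1.57.

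ETS2, the close relative of ETS1 with the same kind of ERK site, had 31.9 with siBRAF in GlnF and 111 with siCont in GlnF. It had 32.8 with siBRAF in Normal, 52.7 with siATF4 in Normal and 49.6 with siCont in Normal. In GlnF over Normal it had -0.04 in siBRAF cells and rose by 1.14 in siCont cells (2.21-fold). Its second probe set had 40.3 with siBRAF in GlnF and 78.0 with siCont in GlnF, beside 30.1 with siBRAF in Normal and 46.4 with siCont in Normal, with differences of 0.41 in siBRAF cells and 0.74 in siCont cells. The rise of ETS2 past 2-fold therefore rests on 1 probe set, whose name marks probes shared between transcripts. With siBRAF over siCont, ETS2 fell by 1.76 in GlnF and had -0.58 in Normal, and the second probe set, at -0.94 in GlnF, was under 2-fold. The number of ETS genes that fell with siBRAF in GlnF was accordingly 5 in place of 6 without shared probe sets or with averaged ones.

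**Figure D4:**
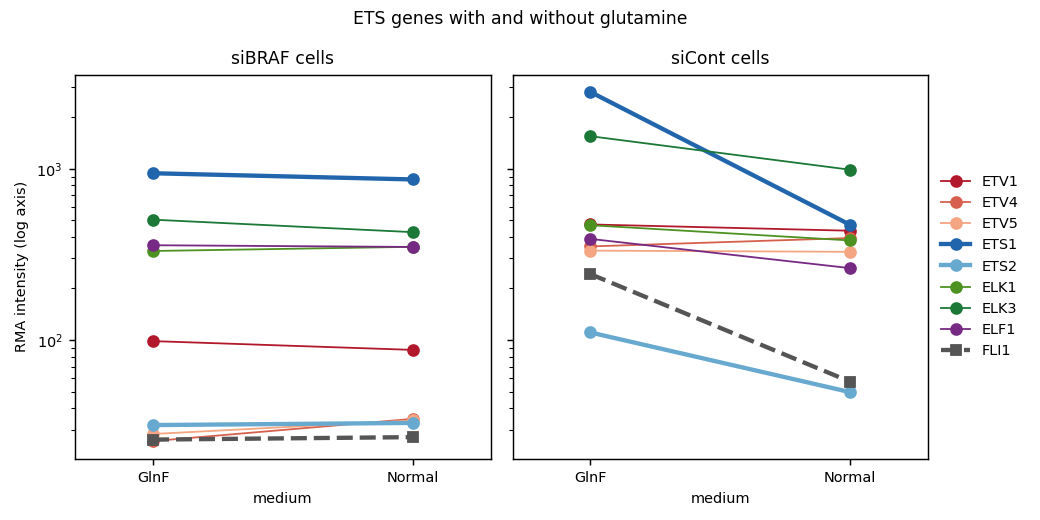
RMA intensity (log axis) of the 8 ETS genes and of FLI1 (dashed) in GlnF and Normal, in siBRAF cells on the left and siCont cells on the right, with 1 array per point. The lines of ETS1, ETS2 and FLI1 are nearly flat in siBRAF cells (942 in GlnF and 866 in Normal for ETS1) and slope steeply in siCont cells (2809 in GlnF and 470.4 in Normal for ETS1).

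The glutamine response of siBRAF cells minus that of siCont cells was -2.46 for ETS1 and -1.18 for ETS2. It was between -0.53 and 0.05 for the other 6 genes, and it was not tested. Few genes of any kind moved in siBRAF cells, where 0.0457% of all genes rose and 0.0761% fell. The median size of the difference of all genes was 0.10 in siBRAF cells and 0.34 in siCont cells. A gene that rose in siCont cells therefore tends to have such a gap, and the gap of all genes was not computed. For ETS2 the gap was -0.33 without shared probe sets and -0.58 with averaged ones, at or near the range of those 6 genes. ELK3 had 0.24 in siBRAF cells and 0.65 in siCont cells, ELF1 had 0.03 in siBRAF cells and 0.56 in siCont cells, and ELK1 had -0.08 in siBRAF cells and 0.29 in siCont cells. None of these reached 2-fold. ETV1 had 0.17 in siBRAF cells and 0.12 in siCont cells, ETV4 had -0.42 in siBRAF cells and -0.16 in siCont cells, and ETV5 had -0.25 in siBRAF cells and 0.02 in siCont cells. Glutamine withdrawal thus moved no PEA3 gene past 2-fold in either cell state. Most genes did not move past it either, so this is not particular to the PEA3 genes. In siCont cells 5.76% of all genes rose and 7.22% fell.

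ATF4 knockdown moved few genes of any kind past 2-fold, and none of the 8. In Normal 0 rose and 0 fell, while 0.471% of all 13170 genes rose and 0.387% fell, and in VEM 0 rose and 0 fell, while 0.205% of all 13173 genes rose and 0.729% fell. ETS1 had -0.59 in each setting, with all 3 probe sets lower in both (-0.73 to -0.54 in Normal and -0.69 to -0.39 in VEM). At those settings 1.83% of all genes in Normal and 2.55% in VEM had a lower difference than ETS1. ETV1 had 0.55 in Normal, where all 5 of its probe sets were higher and 96.9% of all genes were below it, and -0.39 in VEM, where 3 of 4 were lower. The other 6 genes lay between -0.16 and 0.13 in Normal and between -0.36 and 0.29 in VEM.

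**Figure D5:**
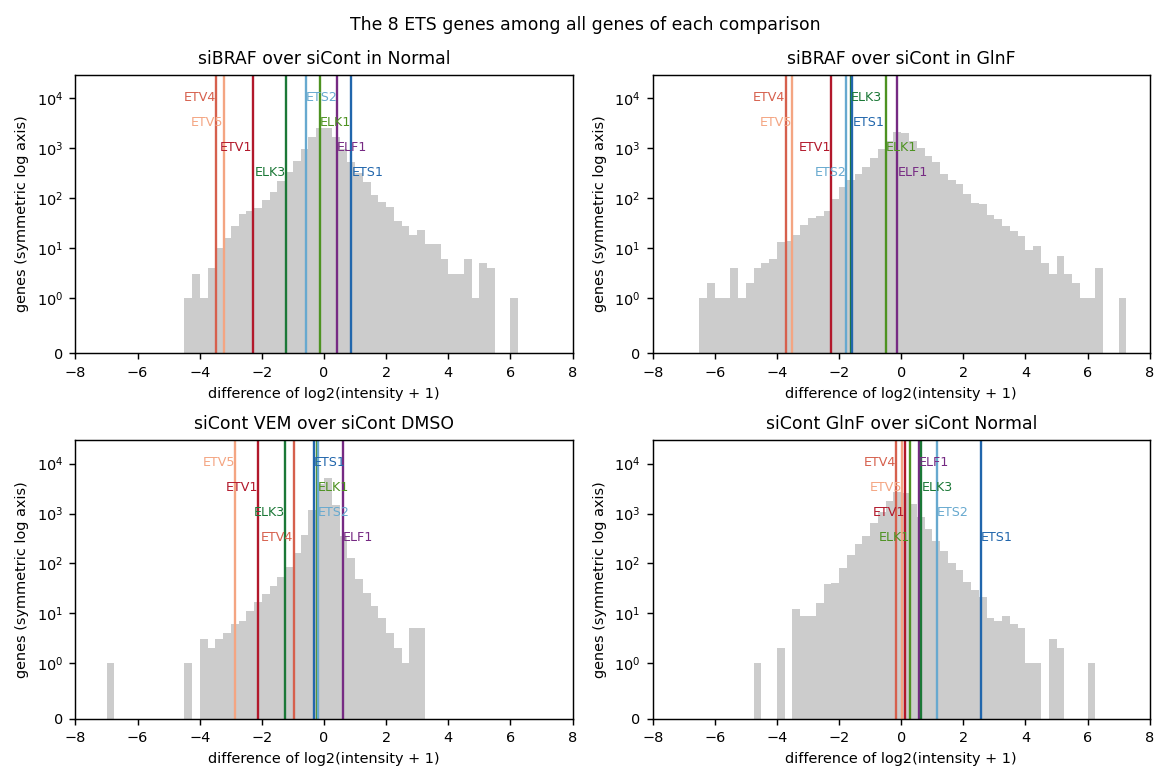
Number of genes (symmetric log axis) by difference of log2(intensity + 1) in 4 pairs of arrays, in grey, with 1 coloured line for each ETS gene. ETV4 and ETV5 lie in the left tail with siBRAF in both media (-3.23 to -3.73) and ETV5 with VEM (-2.87), while ETS1 lies in the right tail with siCont in GlnF over Normal (2.58).

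Of 20 further ETS genes, 19 had a probe set with 1 symbol, and 11 reached the median in each pair except VEM over DMSO, where 12 did. Among those compared, FLI1 and ETV6 moved past 2-fold in at least 1 pair by their brightest probe set. FLI1, the ETS factor best known from the fusion gene of Ewing sarcoma, had 26.2 with siBRAF in GlnF, 242 with siCont in GlnF, 27.1 with siBRAF in Normal, 59.3 with siATF4 in Normal and 57.1 with siCont in Normal. In GlnF over Normal it had -0.05 in siBRAF cells and, like ETS1, rose in siCont cells, by 2.07. With siBRAF it fell by 3.16 in GlnF and fell by 1.05 in Normal, where ETS1 had 0.88. In VEM over DMSO FLI1 fell by 1.77, with 22.9 with siATF4 in VEM and 17.6 with siCont in VEM, against 62.6 with siCont in DMSO, and both VEM values were below the array median. The other 2 FLI1 probe sets above the median on all medium arrays had 1.88 and 1.67 in siCont cells in GlnF over Normal. With siBRAF they had -2.66 and -1.97 in GlnF but -0.71 and -0.25 in Normal, so the fall in Normal rests on 1 of 3 probe sets, and with VEM they had -1.64 and -0.55, each with a VEM value below the array median. FLI1 is the next protein-coding gene after ETS1 on chromosome 11 in RefSeq. ETV6, an ETS repressor, had 174 with siBRAF in GlnF and 56.8 with siCont in GlnF, beside 196 with siBRAF in Normal and 179 with siCont in Normal. It fell by 1.64 in siCont cells in GlnF and rose by 1.595 with siBRAF in GlnF, opposite in sign to ETS1 in both pairs. Both pairs use the siCont array in GlnF. For ETV6 and for FLI1, the rise and the fall therefore share its value and are not separate results.

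Genes known as ERK output, such as the feedback phosphatases and Sprouty proteins, were lower in the same pairs as the PEA3 genes. With siBRAF, 11 of 15 fell and 0 rose in GlnF, led by MYC at -4.89, FOSL1 at -3.78 and SPRY4 at -3.15, and 10 fell and 0 rose in Normal, led by SPRY4 at -2.59, DUSP6 at -2.13 and DUSP4 at -1.91. With VEM, 14 of 15 fell and 0 rose, led by DUSP6 at -6.76, SPRY2 at -4.41 and IER3 at -3.94. Their median difference was -2.13 with siBRAF in GlnF, -1.52 with siBRAF in Normal and -2.60 with VEM, while that of all genes was 0.02 with siBRAF in GlnF, -0.006 with siBRAF in Normal and 0.03 with VEM. In siCont cells in GlnF 6 rose and 2 fell, with MYC at 3.31, DUSP5 at 2.38 and FOSL1 at 2.02. Of all genes, 10.8% fell with siBRAF in GlnF, 7.61% with siBRAF in Normal and 1.92% with VEM. In siCont cells in GlnF 5.76% of all genes rose and 7.22% fell. DUSP6 and SPRY1 were below the array median with siCont in VEM (15.0 for DUSP6), so their sizes rest on a value below the filter. None of the 15 moved past 2-fold with GlnF in siBRAF cells or with siATF4 in Normal, and none of the 13 compared did with siATF4 in VEM.

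Of 11 immediate early genes that are known to carry ELK and serum response factor sites or to respond with them, 9 rose and 0 fell in GlnF in siCont cells, where EGR1 had 5.14, FOS 2.88 and EGR3 2.19. With siBRAF in GlnF 8 fell and 0 rose, with a median of -1.67, and in Normal 1 rose and 1 fell. With VEM 6 fell and 0 rose, with EGR3 at -1.69, EGR1 at -1.54 and FOS at -1.43, of which EGR1 and FOS were below the array median in VEM. In siBRAF cells in GlnF 0 moved past 2-fold, and with siATF4 1 fell in each setting. Of all genes, 5.76% rose and 7.22% fell in GlnF in siCont cells. With siBRAF 12.8% of all genes rose and 10.8% fell in GlnF, and 7.16% rose and 7.61% fell in Normal. The counts with siBRAF in Normal lay near those shares. With VEM 1.92% of all genes fell, and with siATF4 0.387% fell in Normal and 0.729% in VEM.

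Of 14 partners and regulators of ETS factors, 0 moved with VEM, with siATF4 or with GlnF in either cell state. With siBRAF in Normal 3 rose and 1 fell, with FBXW7, a ubiquitin ligase subunit, at 1.52, ATXN1L, a partner of CIC, at 1.29 and GABPB1, the partner of the ETS factor GABPA, at -1.16. With siBRAF in GlnF 2 rose and 1 fell, with GABPB1 at -1.98, FBXW7 at 1.14 and HDAC1 at 1.07. Of all genes, 7.16% rose and 7.61% fell with siBRAF in Normal, and 12.8% rose and 10.8% fell in GlnF. The counts in GlnF lay near these shares. In the other pairs most genes did not move past 2-fold either. CIC had 78.6 with siBRAF in GlnF and 53.8 with siCont in GlnF, beside 82.3 with siBRAF in Normal and 63.5 with siCont in Normal, and it was under 2-fold in every pair.

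Of 9 protease genes and receptors known as ETS1 or PEA3 targets, 4 of the 8 compared rose and 0 fell in GlnF in siCont cells, with the collagenase MMP1 at 2.14, MMP10 at 2.21 and the urokinase receptor PLAUR at 1.08. With siBRAF in GlnF 5 of 8 fell and 1 rose, with MMP1 at -6.50, MMP10 at -2.71 and PLAUR at -2.70, and in Normal 2 of 6 fell and 1 rose, with MMP1 at -4.14, PLAUR at -1.54 and MMP2 at 1.19. With siBRAF, MMP1 lay under the array median in both media (6.04 in GlnF and 7.19 in Normal), as did MMP10, which did so with siCont in Normal too, so these sizes rest on values below the filter. With VEM 1 of 6 fell, PLAUR at -2.40. With siATF4 in Normal 2 of 9 rose, MMP10 at 1.74 and MMP1 at 1.62, and in VEM 0 of 6 moved. With GlnF in siBRAF cells 0 of 5 moved. Of 10 ATF4 target genes, 8 fell and 0 rose with siATF4 in VEM, and 2 fell and 0 rose with siATF4 in Normal. In GlnF over Normal 0 moved in siBRAF cells, and 8 rose and 0 fell in siCont cells. With siBRAF 7 fell and 0 rose in GlnF and 5 fell and 2 rose in Normal, and with VEM 7 rose and 0 fell. Of all genes, 5.76% rose and 7.22% fell in GlnF in siCont cells. With siBRAF 12.8% of all genes rose and 10.8% fell in GlnF, and 7.16% rose and 7.61% fell in Normal. With VEM 0.859% rose and 1.92% fell. With siATF4 0.471% rose and 0.387% fell in Normal, and 0.205% rose and 0.729% fell in VEM.

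For the 6 ETS genes past 2-fold in at least 1 pair, which leaves out ELK1 and ELF1, the genes with the closest values were found from the 8 log2 values, each centred on the mean of its own set of arrays, as the root mean square difference over the 8 arrays among 12905 genes. These points share arrays and scaling, and the ranking is a description. For ETV4 the closest were COL13A1 at 0.21, ITGB3 at 0.25 and CORO2B at 0.26, and for ETV1 TM4SF1 at 0.32, LRATD2 at 0.33 and MALT1 at 0.34. For ETV5 they were FOXC2 at 0.36, ADGRF1 at 0.40 and KIAA0040 at 0.44, with ETV1 at rank 5 (0.46) and ETV4 at rank 13 (0.60). For ETS1 they were RCAN1 at 0.21, CLDN1 at 0.27 and ABL2 at 0.29, while ETS2 stood at rank 1198 (0.75). FLI1 stood at rank 6242 (0.92) from ETS1, so over all 8 arrays the 2 were not close. For ETS2 they were NIP7 at 0.064, MED10 at 0.070 and LINC02882 at 0.071, and for ELK3 CDC42EP2 at 0.095, FOXD1 at 0.098 and CEMIP2 at 0.110. From the side of ETV4, ETV5 stood at rank 66 and ETV1 at rank 85. From ETV1, ETV5 stood at rank 22 and ETV4 at rank 126, and from ETS2, ETS1 stood at rank 10238.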

How the data were processed

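The authors deposited 1 linear intensity value per probe set and array, which the submitters' processing notes say came from RMA, a background correction, quantile normalization and probe summary method. Its version is not given in the sources used here. Of 54675 probe sets, 62 controls were left out, and 41091 with exactly 1 symbol in the platform annotation gave 19775 genes (1801 had several symbols and 11721 none). Intensities were taken as log2(intensity + 1) with numpy 2.4.6 and pandas 2.3.3 in Python 3.11.15, with the 50th percentile of each array as the filter and the probe set choice and 2-fold threshold stated in the results, and the counting was tested on simulated data. The 7 comparisons each set 1 array against 1, with no test. Several share an array, so their values are given side by side and are not independent. The siCont array in Normal stands in 3 comparisons. Those of siCont in GlnF, siCont in VEM, siBRAF in GlnF and siBRAF in Normal stand in 2 each. All 8 ETS genes are named, with further ETS genes past 2-fold and at most 3 genes of each other list. The members and the lists were chosen with earlier results of these data known. Each difference was recomputed under 6 alternatives where these left the gene a value. Promoter windows are those of RefSeq. The number of arrays limits the precision. EGR2, ETV3L and DCT were not analysed here.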

Additional observations from a re-analysis of the deposited data

Results flagged for a closer look

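Differences in the same contrast had opposite signs in 2 backgrounds for several of the 8 ETS genes, and none of these contrasts was tested, since each background has 1 pair of arrays. With siBRAF over siCont, ETS1 had -1.57 in GlnF and 0.88 in Normal, and ELF1 had -0.12 in GlnF and 0.41 in Normal. The other 2 ETS1 probe sets had only 0.28 and 0.03 in Normal, so the higher side for ETS1 rests mainly on its brightest probe set. In GlnF over Normal, ETS2 had -0.041 in siBRAF cells and 1.14 in siCont cells, ELK1 had -0.081 in siBRAF cells and 0.29 in siCont cells, and ETV5 had -0.25 in siBRAF cells and 0.023 in siCont cells. With siATF4 over siCont, ETV1 had -0.39 in VEM and 0.55 in Normal, ETS2 had -0.12 in VEM and 0.086 in Normal, and ELK3 had 0.27 in VEM and -0.11 in Normal. Of these, ETS1 with siBRAF in GlnF and ETS2 in GlnF in siCont cells were past 2-fold.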

How the results depend on the processing

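Each difference was recomputed with log2(intensity + 16), with no filter, with the filter raised to the 75th percentile, with every probe set of a gene averaged, without probe sets whose names mark shared probes, and after quantile normalization within each set of arrays. Of 360 recomputed differences of the 8 genes, 9 dropped below 2-fold, the others kept their side of 2-fold, and none of those past it changed direction. Most of the reported differences were under 2-fold to begin with, and for these keeping that side says little about stability. The 360 include 64 values with no filter and 52 at the 75th percentile. These settings only keep or drop a gene, so their values could not change. Where a setting left a gene without a value, as for ELK1 without shared probe sets, none was counted. The number of ETS genes that rose in GlnF in siCont cells was 2 as reported and 1 with log2(intensity + 16), with averaged probe sets and without shared ones, because ETS2 then had 0.95, 0.64 and 0.74. The ETS2 difference with siBRAF in GlnF was -0.99 with averaged probe sets and -0.94 without shared ones. ELK3 with siBRAF in Normal was -0.90 with averaged probe sets. The gap between the glutamine responses of siBRAF and siCont cells for ETS2 was -0.98 with log2(intensity + 16), -0.58 with averaged probe sets and -0.33 without shared ones. No paired analysis was possible because the labels give no replicate numbers and each condition is 1 array, and no array could be left out for the same reason.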
